A study of Gallus gallus with 9 samples.

Results

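The enzymes that carry acetyl-CoA through mevalonate to squalene were followed in hen preadipocytes on 9 Affymetrix chicken genome arrays. The 8 genes were chosen by name, ACAT2, HMGCS1, MVK, PMVK, MVD, FDPS, GGPS1 and FDFT1, and all 8 were found among 13009 genes with a single symbol in the array annotation. Preadipocytes were the pelleted cells of abdominal fat from 19-wk old Lohman laying hens, grown to confluence and then cultured for 96 hr in medium with fetal bovine serum. There were 3 arrays titled control (non-treated cells), 3 titled DMIOA (dexamethasone, 3-isobutyl-1-methylxanthine, insulin and oleic acid) and 3 titled DMIOA+20S (the same cocktail with 5 μM 20(S)-hydroxycholesterol, an oxysterol). Fat was taken from 3 hens, and the sources used here do not say which hen or culture each array came from, so p-values cover the spread between these arrays only. These are bulk cultures, in which fewer cells of a type and less RNA per cell cannot be told apart.

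In vertebrate cells this pathway supplies cholesterol and also the isoprenoids that anchor proteins to membranes. Most of its enzymes are transcribed under SREBP2, a membrane-bound factor that is released when sterol in the endoplasmic reticulum is low. INSIG proteins hold SREBP2 back when sterol or oxysterol is plentiful, which in mammalian cells turns the whole pathway down together. In fat tissue cholesterol lies largely in the lipid droplet and in membranes.

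The titles of the arrays went against their similarity, so each gene is shown by title and by array set. Set A holds control 1, control 2 and DMIOA 1, set B holds DMIOA 2, DMIOA+20S 1 and DMIOA+20S 2, and set C holds control 3, DMIOA 3 and DMIOA+20S 3. Over 38439 probe sets, arrays within a set correlated at r = 0.993 to 0.997, and arrays of sets A and B at r = 0.970 to 0.975. Between sets B and C the range was 0.989 to 0.995, and the closest array to DMIOA+20S 2 of set B was DMIOA+20S 3 of set C (r = 0.9947). Outside set A, DMIOA 1 was also closest to DMIOA+20S 2 and DMIOA+20S 3 (r = 0.9755 and 0.9753). With the other arrays of sets B and C it correlated at r = 0.9700 to 0.9724. The likeness to these arrays therefore crosses titles. These correlations run across probe sets of the same arrays, which are not independent replicates. The sets were drawn from the arrays themselves and not from the labels, so values by set are a description, with no mean and no test. Set C is also the 3 arrays whose labels are worded differently from the other 6, and the set and that wording cannot be told apart. Array medians were 2.11 to 2.14 on the log2 scale.

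Of the marker lists, 8 of 9 preadipocyte and fibroblast genes had a mean log2 value of at least 3, and PDGFRA did not (mean 1.54). All 3 skeletal muscle genes and both measured erythroid genes stayed under 3. Of the adipocyte genes, FABP4 read 10.04, 10.23 and 10.22 on set A and 13.39 to 13.73 on the other 6 arrays, whereas CEBPA and PLIN1 stayed under 3 on average.

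HMGCS1, which joins acetoacetyl-CoA to acetyl-CoA at the entry of the pathway, had the widest range of the 8 genes. Given on the log2 scale in the order of the replicate numbers, it read 8.93, 8.55 and 6.83 with the title control, 8.97, 9.62 and 6.98 with DMIOA, and 9.64, 9.39 and 6.66 with DMIOA+20S. Every titled group therefore held a low replicate 3 array, and the titled groups overlapped. By set, HMGCS1 was highest on set B (9.39 to 9.64), lower on set A (8.55 to 8.97) and lowest on set C (6.66 to 6.98), with no overlap between any pair of sets. The lowest array of set B lay 2.41 log2 units above the highest of set C, a 5.31-fold difference, while the 3 arrays of set C, which carry all 3 titles, spanned 0.32. The lowest array of set A lay 1.57 above set C, and set B lay 0.42 above set A. Leaving out DMIOA+20S 2 widened the gap between sets B and C to 2.64 and that between sets B and A to 0.65.

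FDPS, which builds farnesyl diphosphate from smaller isoprene units, was shaped like HMGCS1, and the pair had a root mean square difference of 0.25 log2 units between their centred values over the 9 arrays. In replicate order, FDPS read 7.43, 6.69 and 5.56 with the title control, 7.62, 7.82 and 5.45 with DMIOA, and 7.69, 7.49 and 5.34 with DMIOA+20S. Set C was again low and narrow, at 5.34 to 5.56. Set B lay 1.93 log2 units above it, a 3.80-fold gap, and set A 1.13 above it, or 1.87 without control 2. Sets A and B overlapped for FDPS, because DMIOA 1 read 7.62 and DMIOA+20S 2 read 7.49.

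FDFT1, squalene synthase, which commits farnesyl diphosphate to sterols, followed another pattern. In replicate order, it read 7.87, 7.46 and 8.05 with the title control, 7.71, 9.37 and 8.05 with DMIOA, and 9.42, 8.95 and 7.49 with DMIOA+20S. The 3 arrays of set B stood above the other 6. Their gap was 1.08 log2 units over set A, a 2.12-fold difference, and 0.90 over set C. Sets A and C overlapped, at 7.46 to 7.87 and 7.49 to 8.05. FDFT1 thus differed from HMGCS1 and FDPS in where set A lay, near set C and not near set B, and its root mean square difference was 0.90 from HMGCS1 and 0.84 from FDPS.

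**Figure D1:**
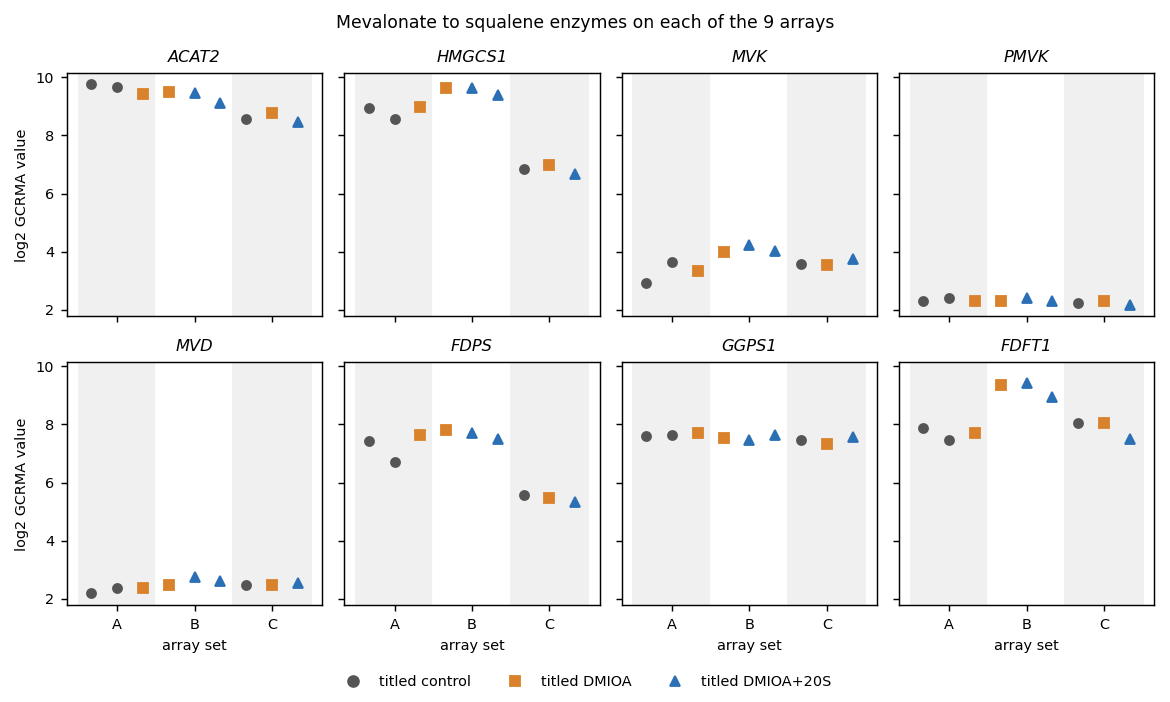
Log2 GCRMA value (y axis) of the 8 enzyme genes on each of the 9 arrays, arranged by array set (x axis, shaded bands) with the symbol giving the title. HMGCS1 and FDPS are low on the 3 arrays of set C (6.66 to 6.98 and 5.34 to 5.56), FDFT1 is high on the 3 of set B (8.95 to 9.42), and GGPS1 is level at 7.33 to 7.72.

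ACAT2, the cytosolic thiolase that makes acetoacetyl-CoA, varied less. In replicate order, it read 9.76, 9.67 and 8.58 with the title control, 9.43, 9.51 and 8.77 with DMIOA, and 9.47, 9.11 and 8.47 with DMIOA+20S. Set C was the lowest, 0.34 log2 units under set B and 0.66 under set A, and sets A and B overlapped. The gap to set B was 0.70 without DMIOA+20S 2 and 0.53 without DMIOA 3. A further probe set of ACAT2 read 6.47 to 6.88 on set B and 6.16 to 6.76 on set C, which overlap, and the last lay at 1.53 to 1.86 on all 9 arrays. The position of ACAT2 on set C therefore rests on 1 of its 3 probe sets.

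GGPS1, which lengthens farnesyl diphosphate to geranylgeranyl diphosphate, was nearly level. Its 9 values lay between 7.33 and 7.72, a 1.31-fold range, against a 7.86-fold range for HMGCS1 and a 5.58-fold range for FDPS. Sets A and C were separated by 0.03 log2 units (0.08 without control 1 and 0.12 without DMIOA+20S 3), a gap that closed after quantile normalization, and set B overlapped both.

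The kinases and the decarboxylase of mevalonate were dim. PMVK, phosphomevalonate kinase, read 2.15 to 2.41 and MVD, which yields isopentenyl diphosphate, 2.20 to 2.76, near the medians of the arrays, a range in which GCRMA compresses differences. MVK, mevalonate kinase, read 2.92, 3.65 and 3.59 with the title control, 3.34, 4.0 and 3.53 with DMIOA, and 4.23, 4.03 and 3.74 with DMIOA+20S. MVK was highest on set B, 0.35 log2 units above set A (0.67 without control 2) and 0.26 above set C (0.42 without DMIOA+20S 3). The other probe set of MVK read 1.98 to 3.16 and its sets overlapped. A low value here says only that these probe sets gave little signal.

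Counted over the 8 genes, 5 lay higher on every array of set B than on any of set C (ACAT2, HMGCS1, MVK, FDPS and FDFT1), against 9.26% of all 13009 genes, and 0 lay the other way round, against 11.1%. With a gap of at least 1 log2 unit there were 2 higher on set B, HMGCS1 and FDPS, against 0.223% of all genes, and 0 higher on set C, against 0.392%. Set A lay above set C for 4 genes (ACAT2, HMGCS1, FDPS and GGPS1), against 21.5%, and by at least 1 for HMGCS1 and FDPS, against 3.75%. Set C lay above set A for MVD alone, against 21.7%, and for 0 genes by at least 1, against 2.69%. Set B lay above set A for 4 (HMGCS1, MVK, MVD and FDFT1), against 20.6%, and by at least 1 for FDFT1, against 2.58%. None lay higher on set A than on set B, against 22.3%, or 3.89% with a gap of at least 1. The sets were defined on these arrays over all probe sets, so the counts describe the arrays and test nothing.

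Differences between the titled groups were fitted with limma over all 9 arrays and 38439 probe sets, and calls needed a log2 difference of 1 or more in either direction as well as significance at 0.05 after Benjamini-Hochberg adjustment. Between DMIOA and control, limma called 0 of the 8 enzymes, against 0.0% of all probe sets, and 0 of the 8 had an unadjusted p under 0.05, against 2.35%. Their log2 fold changes ran from -0.10 to 0.59, with 5 above 0 and a median of 0.16, against a median of -0.01 over all genes. HMGCS1 measured 8.10 ± 1.12 (log2, SD, n = 3) on the arrays titled control and 8.52 ± 1.37 (SD, n = 3) on those titled DMIOA, and the 0.42 between them lies within the SD of either title (standard error 0.98, limma adjusted p = 0.994). FDFT1 measured 7.79 ± 0.30 and 8.38 ± 0.88 (SD, n = 3), and FDPS 6.56 ± 0.94 and 6.96 ± 1.31 (SD, n = 3), with log2 fold changes of 0.59 (standard error 0.56) and 0.40 (standard error 0.84). Without control 3 the log2 fold change of HMGCS1 was -0.21 and without DMIOA 3 it was 1.19, so single arrays set its direction. Among replicates 1 and 2 alone, whose labels share their wording, it was 0.56 (standard error 0.27) and that of FDPS 0.66 (standard error 0.27), with a limma adjusted p = 0.912 for both. In that subset both controls and DMIOA 1 lie in set A and DMIOA 2 in set B, so the DMIOA title still mixes sets. Replicate 3 has a single array per title, so no test could be made within it. None of the 8 genes was free of overlap between these titles, against 4.26% of all genes.

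The comparison between DMIOA+20S and DMIOA, for 20(S) added to DMIOA, shares the DMIOA arrays with the one before. Arrays titled DMIOA lie in sets A, B and C and those titled DMIOA+20S in sets B and C, so the spread within a title includes the gaps between sets. A gene that was not called is therefore not shown to be unaffected by 20(S). Again 0 of the 8 were called, against 0.0% of all probe sets, and 0 had an unadjusted p under 0.05, against 2.86%. Their log2 fold changes lay between -0.22 and 0.37 (median 0.04), with 5 above 0, and the median over all genes was -0.01. FDPS measured 6.96 ± 1.31 on the DMIOA arrays and 6.84 ± 1.30 on the DMIOA+20S arrays (log2, SD, n = 3), so the log2 fold change was -0.12 with a standard error of 0.84 (limma adjusted p = 0.993). For FDFT1 the values were 8.38 ± 0.88 and 8.62 ± 1.0 (SD, n = 3), a difference of 0.24 (standard error 0.56). Without DMIOA 3 the FDPS difference was -0.88 and without DMIOA+20S 3 it was 0.63, and that of HMGCS1 moved likewise from -0.73 to 0.99. Among replicates 1 and 2 alone, FDPS differed by -0.13, HMGCS1 by 0.22 and FDFT1 by 0.64 (standard errors 0.27, 0.27 and 0.56). In that subset DMIOA 1 lies in set A and the rest in set B. MVD alone of the 8 did not overlap between these titles, against 6.59% of all genes, and its values are near the array medians.

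Between DMIOA+20S and control, limma called 2 of 38439 probe sets, those of TNPO1 and RPS6KA6, both lower and neither a gene of this pathway, which is 0.0052%. Of the 8 enzymes 0 were called in either direction, and 2 had an unadjusted p under 0.05, MVK (log2 fold change 0.61, standard error 0.25) and MVD (0.29, standard error 0.10), with a limma adjusted p = 0.492 for both, where 10.1% of all probe sets had an unadjusted p under 0.05. Both were higher on all 3 arrays titled DMIOA+20S than on any titled control, which holds for 15.6% of all genes in one or the other direction. The other 6 enzymes had log2 fold changes of -0.32 (ACAT2) to 0.83 (FDFT1), and the median over the 8 was 0.29, against -0.01 over all genes. Among replicates 1 and 2 alone, FDFT1 differed by 1.52 (standard error 0.56, limma adjusted p = 0.327) and HMGCS1 by 0.78 (standard error 0.27, limma adjusted p = 0.315), and in that subset both controls lie in set A and both DMIOA+20S arrays in set B.

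**Figure D2:**
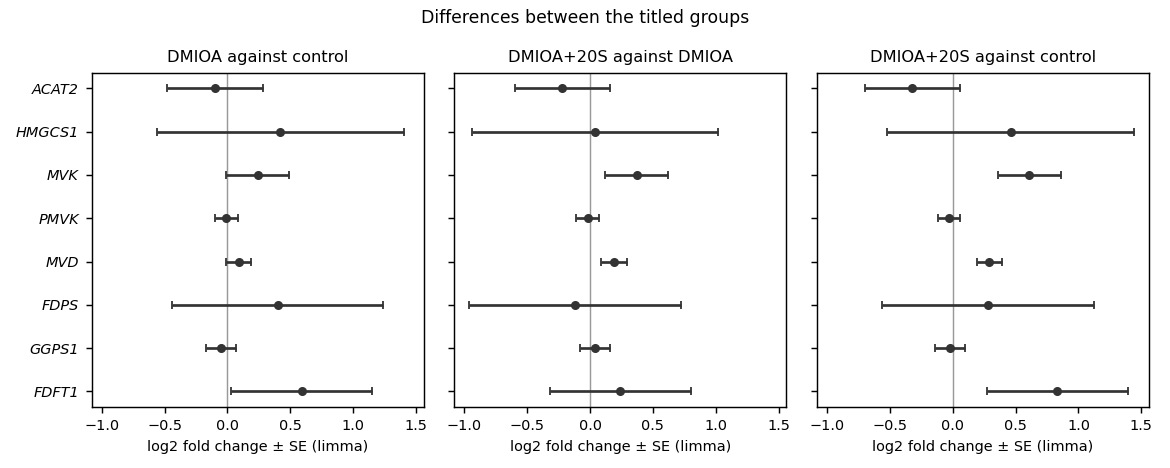
Log2 fold change with its standard error from limma (x axis) of the 8 enzyme genes (y axis) in the 3 comparisons between titled groups. The bars of HMGCS1 and FDPS are widest (standard errors 0.98 and 0.84), and no gene was called in any comparison.

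The steps next to these enzymes were taken as a list, of which 9 of 14 genes were measured here. By title 0 of the 9 were called in each of the 3 comparisons, with medians of 0.16, 0.02 and 0.13. By set, 7 of the 9 lay higher on every array of set B than on set C, against 9.26% of all genes. Of them 6 did so by at least 1 log2 unit, against 0.223% of all genes, namely SQLE, LSS, MSMO1, NSDHL, HSD17B7 and DHCR7. SQLE, which oxidizes squalene, read 10.89 to 10.96 on set B, 9.92 to 10.33 on set A and 8.56 to 8.86 on set C. LSS, which closes the sterol rings, read 8.40 to 8.58, 7.67 to 8.16 and 5.33 to 6.10 on sets B, A and C, the order seen for HMGCS1. HSD17B7, a reductase of late sterol synthesis, read 8.65 to 9.19 on set B, 6.30 to 6.76 on set A and 7.16 to 7.36 on set C, and so stood with FDFT1 in being lower on set A than on set B by more than 1 unit. The 2 without a gap between sets B and C were LBR and CYP51A1. LBR (mean 8.38) was highest on set A, at 8.60 to 8.71, and read 8.11 to 8.36 on set B and 8.12 to 8.30 on set C. CYP51A1 gave little signal on any array (mean 1.18).

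The genes most like each enzyme were sought among 6615 genes with a mean of at least 4, by the smallest root mean square difference of centred log2 values over the 9 arrays. For HMGCS1 these were INSIG1 (0.14), which retains SREBP2 in the endoplasmic reticulum, IDI2 (0.16), an isopentenyl diphosphate isomerase of the step before FDPS, and STARD4 (0.18), a carrier of cholesterol between membranes. For FDPS they were MSMO1 (0.17), a sterol methyl oxidase, then INSIG1 and IDI2 (0.19 each). In replicate order, INSIG1 read 10.53, 10.23 and 8.64 with the title control, 10.61, 11.03 and 8.50 with DMIOA, and 11.03, 10.99 and 8.45 with DMIOA+20S. Those of FDFT1 were DHCR7 (0.16), which makes cholesterol from 7-dehydrocholesterol, RCAN1 (0.17), an inhibitor of calcineurin, and LFNG (0.21), a glycosyltransferase that acts on Notch. DHCR7 read 11.12 to 11.43 on set B, 9.64 to 9.96 on set A and 10.03 to 10.08 on set C. ACAT2 was closest to IGFBP4 (0.09), B4GALT4 (0.13) and PRSS23 (0.14), of which none is an enzyme of this pathway. For GGPS1 the closest, WIPI1, DNAJA2 and PTP4A2, lay at 0.03 to 0.04. The measure is not scaled by the range of a gene, and GGPS1, PMVK and MVD ranged over only 0.39, 0.26 and 0.56 log2 units. Their small differences therefore do not show closer partners than those of HMGCS1 or FDFT1. ACAT2 and MVK ranged over 1.30 and 1.31 log2 units, against 2.40 for SQLE. A pathway gene of wider range would lie farther from ACAT2 or MVK even with a like shape. The lack of pathway enzymes among the genes closest to ACAT2 or MVK therefore does not show an unlike shape. The dim enzymes had MVK closest to ZC3HAV1, MED13 and CAMK2D (0.13 to 0.16), PMVK to RPN1, MRPS27 and OTUD6A (0.04 each) and MVD to PSEN2, SPRED1 and ADH4 (0.04 to 0.07).

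**Figure D3:**
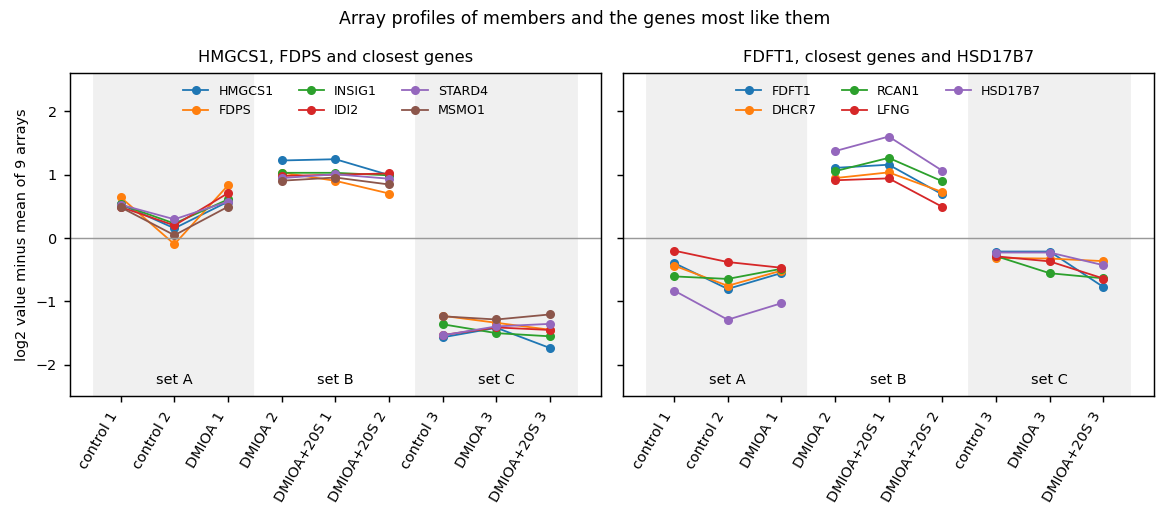
Log2 value minus the mean of the 9 arrays (y axis) for HMGCS1, FDPS and the genes most like them (left) and for FDFT1, the genes most like it and HSD17B7 (right), on each array (x axis), with lines joining arrays of a set. On the left set C is lowest for all 6 genes, and on the right set B stands above sets A and C for all 5. The genes beside the enzymes were picked for their values on these same arrays, so the shared pattern follows from the choice.

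Among 14 measured genes of sterol sensing and transport, INSIG1 and STARD4 lay above set C on both other sets by at least 1 log2 unit. Over all genes, 0.223% lay that far above set C on set B and 3.75% did on set A, and the share for both at once was not counted. MYLIP, a ubiquitin ligase for lipoprotein receptors, ran the other way, at 8.69 to 8.82 on set C, 6.99 to 7.17 on set A and 6.81 to 6.97 on set B. With INSIG2 and NPC1, it made 3 of the 14 higher on set C than on set B without overlap (21.4%, against 11.1% of all genes). INSIG2 read 8.97 to 9.14 on set B, 9.38 to 9.49 on set C and 9.55 to 9.59 on set A, an order unlike that of INSIG1. SREBF2, the gene of SREBP2 itself, read 6.58 to 7.15 on set B and overlapped both other sets. Of 12 measured genes that use the isoprenoids, PDSS1, which makes the ubiquinone tail, was the single gene higher on set B than on set C (8.33% of the list, against 9.26% of all genes), and NUS1, of dolichol synthesis, the single gene higher on set C (8.33%, against 11.1%). Higher on set A than on set B were 5 of the 12 (41.7%, against 22.3% of all genes), PDSS2, COQ2, COX10, FNTA and PGGT1B. The same 5 were higher on set A than on set C (41.7%, against 21.5%). The share of all genes higher on set A than on both was not counted. Both farnesyltransferase subunits varied little, FNTA from 9.72 to 9.98 and FNTB from 6.55 to 7.0. Among 5 measured enzymes of acetyl-CoA and ketone bodies, AACS, which activates acetoacetate in the cytosol, read 8.22 to 8.29, 7.20 to 7.36 and 6.22 to 6.33 on sets B, A and C, in the order of HMGCS1. ACAT1, the mitochondrial thiolase, was highest on set A (10.21 to 10.38). By title, limma called 0 genes of any of these lists.

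Other measures moved with the sets too. The reference gene GAPDH read 13.58 to 13.76 on all 9 arrays, but RPLP0 read 11.85 to 11.98 on set A and 12.80 to 12.89 on the rest. HPRT1 read 9.20 to 9.27 on set A, 8.18 to 8.32 on set B and 8.47 to 8.55 on set C. Of the 7 reference genes, 3 were higher on set C than on set B without overlap, TBP, HPRT1 and B2M (42.9%, against 11.1% of all genes). ACTB alone was higher on set B than on set C (14.3%, against 9.26%), and it was highest on set A (14.16 to 14.25). Higher on set A than on set B were 5 of the 7, ACTB, TBP, HPRT1, YWHAZ and B2M (71.4%, against 22.3%). All of these but B2M were also higher on set A than on set C (57.1%, against 21.5%). GAPDH and RPLP0 were lower on set A than on set B (28.6%, against 20.6%) and set C (28.6%, against 21.7%), GAPDH by at most 0.01. The summed level of the 6 adipocyte markers was 10.66 to 10.88 (log2) on set A, 13.65 to 13.79 on set B and 13.43 to 13.48 on set C, and FABP4 made up most of it. PPARG, the adipogenic nuclear receptor, was instead highest on set A, at 8.93 to 9.30. It read 7.95 to 8.61 on set C without overlap and 8.24 to 9.0 on set B with overlap. CEBPA and LPL overlapped between all sets. ADIPOQ and PLIN1 were, like FABP4, lower on set A than on either other set without overlap. Both were dim, at 2.55 to 3.78 and 1.75 to 2.54 over the 9 arrays. The summed level of the 6 macrophage and leukocyte markers was 8.04 to 8.26, 6.77 to 6.96 and 6.61 to 7.01 on sets A, B and C. PTPRC (CD45) read 5.12 to 5.37 on set A and 1.94 to 2.67 on the others. With CSF1R, CTSS, CD74 and NCF4, it made 5 of the 6 higher on set A than on set B without overlap (83.3%, against 22.3% of all genes). The same 5 were higher than on set C (83.3%, against 21.5%). The gap of CTSS was 0.14 log2 units over either set, and MARCO overlapped between all sets. The 9 preadipocyte and fibroblast markers summed to 16.23 to 16.29, 16.36 to 16.42 and 16.25 to 16.31. Sets B and C, between which HMGCS1 and FDPS were farthest apart, overlapped in the macrophage sum. By the values above, they did not overlap in the adipocyte sum or in the preadipocyte and fibroblast sum. The endothelial sum did not overlap either, at 5.20 to 5.70 on set B and 5.73 to 6.58 on set C (7.12 to 7.35 on set A). Of its genes, KDR, VWF and TEK averaged under 3. CDH5 read 3.94 to 4.27 on set B, and on set C 4.71 (control 3), 6.15 (DMIOA 3) and 4.45 (DMIOA+20S 3). PECAM1 overlapped between all sets, at 3.57 to 5.05 on set A, 3.0 to 4.74 on set B and 3.82 to 4.66 on set C. Nor did sets B and C overlap in the mesothelial sum of KRT7 and MSLN, at 11.64 to 11.89 and 11.07 to 11.18 (11.43 to 11.59 on set A), with MSLN under 3 on average. The part of these cell markers in the enzyme values was not tested.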

How the data were processed

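RNA of hen preadipocytes was measured on 9 Affymetrix arrays. The authors corrected, normalized and summarized the scanned arrays with GCRMA in FlexArray (versions not given in the sources used here), and the deposited values are log2, 1 per probe set, which draws dim probe sets toward a floor. They were used with no further normalization. Groups came from the titles. After 96 control probe sets were left out, 38439 were tested, of which 27168 have 1 symbol, 177 several and 11094 none in the platform annotation. All 8 enzymes have the same symbol in RefSeq by gene ID. Each gene is represented by its probe set of highest average over the 9 arrays.

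Differences were fitted with limma 3.58.1 (R 4.3.3), checked on simulated data. The simulated noise was independent between arrays, so the check does not cover array sets mixed within titles. The number of arrays, 3 per title, limits the precision, and so does the spread between replicate 3 and the other arrays within a title. With the label wording as a block, the standard error between DMIOA and control was 0.25 for HMGCS1 and 0.24 for FDPS, against 0.98 and 0.84 without it. That of FDFT1 changed little, from 0.56 to 0.53. The text names the 8 enzymes, genes of the lists, and the 3 genes most like each enzyme. The enzymes, lists and array sets were chosen with earlier results of these data known. The limits for array set counts, and which list genes serve as examples, were chosen after values were seen. Each result was refitted with the replicate number or the label wording as a block, on replicates 1 and 2 alone, on the 2 titles at a time, after quantile normalization or median centring, with genes averaged across their probe sets, and with every array left out once. Calls were also counted with the t-test of the methods, without the fold limit, after a filter (log2 of at least 4 on at least 3 arrays) and using eBayes with trend and robust. Python 3.11.15 with pandas 2.3.3 and matplotlib 3.10.9 made the summaries and plots.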

Additional observations from a re-analysis of the deposited data

How the results depend on the processing

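No alternative called any of the 8 enzymes. The 2 probe sets called between DMIOA+20S and control were 0 with the replicate block, label wording as a block, replicates 1 and 2 only, the 2 groups alone, the methods' t-test after adjustment, the filter on low values, eBayes with trend and robust or genes averaged across probe sets, 1 after quantile normalization, and 0 without any single array. Without the adjustment, the methods' t-test called 221 there, 1 between DMIOA and control and 5 between DMIOA+20S and DMIOA. Same-numbered arrays deviated from their group means together or in opposition (correlations of -0.557 to 0.704), and 4 of 9 arrays correlated best with their own number. The group means mix the array sets, so these correlations cannot show whether arrays are paired by hen or culture.

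Among the enzymes' differences by title, 3 changed direction and 165 kept it under the other alternatives, as did 30 and 186 with an array left out. GGPS1 was 0.041 between DMIOA+20S and control after quantile normalization, and on replicates 1 and 2 GGPS1 was -0.068 and PMVK 0.055 between DMIOA+20S and DMIOA. With single arrays left out, log2 fold changes that turned ran as follows. Between DMIOA and control they were -0.479 to 0.131 for ACAT2, -0.098 to 1.158 for FDPS, -0.15 to 0.047 for GGPS1, -0.215 to 1.194 for HMGCS1 and -0.054 to 0.03 for PMVK. Between DMIOA+20S and control they were -0.221 to 1.029 for FDPS, -0.066 to 0.033 for GGPS1, -0.174 to 1.413 for HMGCS1 and -0.087 to 0.039 for PMVK. Between DMIOA+20S and DMIOA they were -0.453 to 0.053 for ACAT2, -0.155 to 0.807 for FDFT1, -0.879 to 0.628 for FDPS, -0.063 to 0.134 for GGPS1, -0.731 to 0.99 for HMGCS1 and -0.072 to 0.053 for PMVK. The lowest or highest values of HMGCS1 and FDPS came from leaving out a replicate 3 array in every comparison.

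The alternatives for array sets were chosen after seeing the data. Set B stayed above set C for 5 to 7 enzymes with any array left out, and the gap of HMGCS1 was 2.41 to 2.64, that of FDPS 1.93 to 2.13, that of FDFT1 0.90 to 1.33 and that of ACAT2 0.34 to 0.70. Between sets A and C the gap of FDPS was 1.13 to 1.87, and between sets B and A that of HMGCS1 was 0.42 to 0.65 and that of MVK 0.35 to 0.67. GGPS1 went from 0.03 between sets A and C to -0.03 after quantile normalization. With probe sets averaged, the gap of ACAT2 was 0.10 between sets B and C and 0.24 between sets A and C. Signal over background limits what PMVK, MVD and MVK can show.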
